A study of Homo sapiens with 12 samples.

Results

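The transcripts followed here are 10 genes of the KIT, erythropoietin receptor and STAT5 signalling route, taken by name from 60658 rows of an expression table in human K-562 erythroleukemia cells: KIT, EPOR, CSF2RB, JAK2, STAT5A, STAT5B, CISH, SOCS2, PIM1 and PIM2. In blood progenitors, stem cell factor binds the receptor tyrosine kinase KIT, and erythropoietin binds EPOR, which has no kinase of its own and works through JAK2. JAK2 phosphorylates STAT5A and STAT5B, which enter the nucleus and switch on CISH and SOCS2, whose proteins damp the same receptors, and the survival kinases PIM1 and PIM2. CSF2RB is the beta chain shared by the receptors for IL-3, IL-5 and GM-CSF. K-562 cells carry the BCR-ABL1 fusion kinase, which is known to drive STAT5 without a cytokine.

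The libraries fall into 4 groups of 3. The D152V_Rescue group is a K-562 line stably expressing a construct labelled 3xTY-D152V and transfected with si2992, an siRNA against the transcription factor MYB. The MYB-WT_Rescue group stably expressed 3xTY-hcM and received the same siRNA. The MYB_KnockDown group carried the tag 3xTY1 alone with si2992, and the siRNA_Control group carried 3xTY1 with a siGENOME non-targeting siRNA. All lines were selected with G418, and RNA was taken 24 h after transfection in 3 individual experiments. The promoter of the constructs, and whether a line is 1 clone or a pool, are not stated in the sources used here.

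Values are FPKM, that is, fragment numbers divided by transcript length and by the library's mapped fragments, so that levels can be compared between genes of unlike length. Read numbers per gene, and therefore depth, are unknown, and no counting interval can be given. MYB itself averaged 91.1 ± 8.11 FPKM in the D152V rescue, 124 ± 8.87 in the wild-type (WT) rescue, 30.2 ± 3.59 in the knockdown and 120.1 ± 14.2 in the control (SD, n = 3 each). These are values of the whole gene, in which transcript of a construct and of the cell's own MYB cannot be told apart. MYB in the D152V rescue stood at 73.4% of the WT rescue (log2 difference -0.44, limma adjusted p = 0.0494, and 0.0640 with the replicate number as a block; under 0.05 in 4 of 21 other settings of the analysis). All 15 erythroid and K-562 markers reached 1 FPKM in at least 1 library, with 1444 to 8601 FPKM summed over the list. EPB42 and SLC4A1 were low, at 1.32 and 3.10 FPKM at most. MYB_KnockDown replicate 1 stood apart from the other 11 libraries in its FPKM total, at 1215578 against 672616 to 798362. The lowest correlation between 2 knockdown libraries was 0.929, and between 2 libraries of any other group 0.983. Where leaving MYB_KnockDown replicate 1 out ended a call given here, that is stated in the same paragraph. In bulk RNA, fewer cells with a transcript and less of it per cell cannot be told apart.

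RefSeq promoter windows of GRCh38.p14 were matched to 8 of the 10 genes, 13 windows in all; for CSF2RB and SOCS2 none was matched. The 250 bases before the transcription start are printed for CISH, because it carries the STAT motif, and for STAT5A and KIT, because these genes differed most between the groups. Capitals mark TTCNNNGAA, the palindrome that STAT dimers bind, in CISH (chr3:50611775-50612024, minus strand), and AACNG, the core that MYB binds, in STAT5A (chr17:42287189-42287438, plus strand). The KIT window (chr4:54657707-54657956, plus strand) has no match to either and is all in lower case. STAT5A has further windows, at chr17:42287297-42287546 and chr17:42288248-42288497, with 1 and 2 AACNG matches. The printed one lies directly before the gene interval given below.
CISH: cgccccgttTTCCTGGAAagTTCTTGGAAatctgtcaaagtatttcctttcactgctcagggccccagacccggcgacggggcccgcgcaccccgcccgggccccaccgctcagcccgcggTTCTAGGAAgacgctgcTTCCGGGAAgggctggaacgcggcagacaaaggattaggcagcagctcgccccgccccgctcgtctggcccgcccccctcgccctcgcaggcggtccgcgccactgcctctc
STAT5A: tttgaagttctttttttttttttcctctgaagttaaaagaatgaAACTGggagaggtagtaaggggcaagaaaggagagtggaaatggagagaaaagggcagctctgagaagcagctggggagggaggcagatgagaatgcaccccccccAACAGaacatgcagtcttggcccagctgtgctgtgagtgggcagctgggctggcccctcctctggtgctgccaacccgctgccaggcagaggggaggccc
KIT: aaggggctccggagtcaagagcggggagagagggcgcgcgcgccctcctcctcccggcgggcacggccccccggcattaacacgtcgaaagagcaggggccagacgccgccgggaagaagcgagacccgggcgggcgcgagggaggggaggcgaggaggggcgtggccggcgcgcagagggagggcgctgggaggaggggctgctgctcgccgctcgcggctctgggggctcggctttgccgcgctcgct

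The CISH window held 4 matches to TTCNNNGAA, a motif present on either strand in 6.57% of all 35116 RefSeq windows of this length, and no window of the other 7 genes held any. AACNG, searched on both strands, was present in 70.6% of all windows and in windows of CISH, JAK2, STAT5A, EPOR and PIM2. In CISH, 1 of the 2 AACNG matches overlapped the first bases of a TTCNNNGAA match. AGATAA, the motif of GATA factors, was present in 9.17% of all windows and once in that of EPOR. These matches describe the letters only; binding was not measured.

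**Figure D1:**
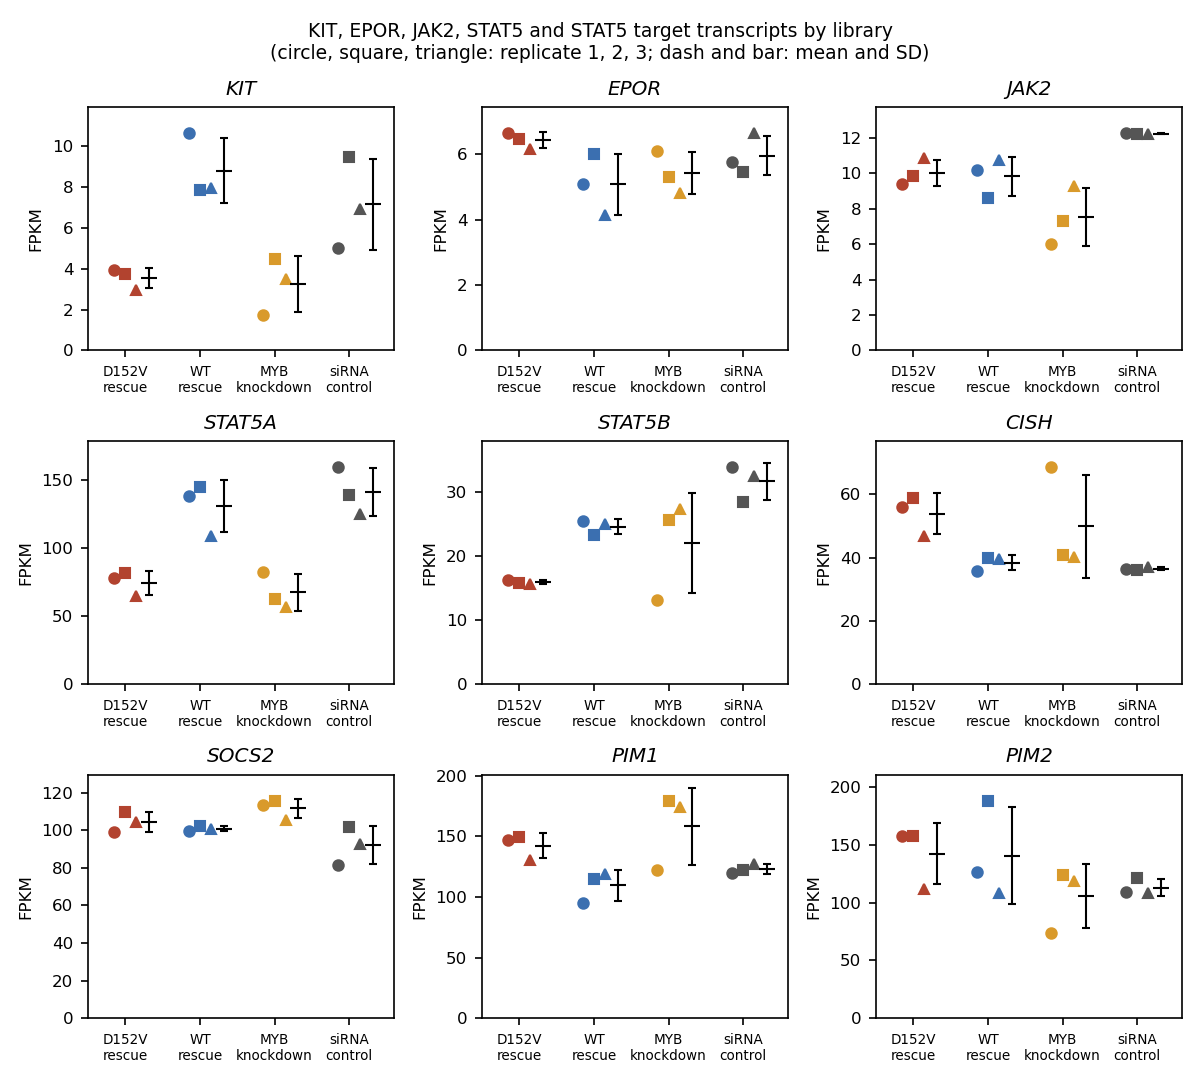
FPKM (linear axes from 0) of the 9 transcripts above 1 FPKM in each of the 12 libraries, 3 per group, with mean and SD. STAT5A lay at 56.7 to 82.8 FPKM in the D152V rescue and knockdown libraries and at 109 to 159.6 FPKM in the WT rescue and control libraries, and KIT split in the same way.

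Among the receptors, KIT, the receptor for stem cell factor (chr4:54657957-54740715), measured 3.93, 3.73 and 2.97 FPKM in D152V rescue replicates 1 to 3 and 10.6, 7.84 and 7.94 FPKM in WT rescue replicates 1 to 3. It measured 1.74, 4.48 and 3.50 FPKM in the knockdown and 5.02, 9.48 and 6.95 FPKM in the control. Every D152V rescue and knockdown library was thus below every WT rescue and control library, while the D152V rescue overlapped the knockdown and the WT rescue overlapped the control. Changes are given on the log2(FPKM + 1) scale, which understates them for a gene as low as KIT. KIT fell in the knockdown against the control by 0.96 (SE 0.26, limma adjusted p = 0.0401), to 45.3% of the control mean. It was higher in the WT rescue than in the knockdown by 1.26 (SE 0.26, limma adjusted p = 0.00438) and lower in the D152V rescue than in the WT rescue, at -1.11 (SE 0.26, limma adjusted p = 0.0178). The D152V rescue differed from the knockdown by 0.15 (95% interval -0.43 to 0.73, limma adjusted p = 0.689), and by -0.14 without MYB_KnockDown replicate 1.

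The KIT rise in the WT rescue passed the test in all 21 other settings. Its fall in the knockdown passed in 8 of them, with limma adjusted p from 0.0233 to 0.201: it was lost without any 1 of the 9 control and rescue libraries, and kept without any 1 of the knockdown libraries. The difference between the rescues was lost without WT rescue replicate 1, D152V rescue replicate 2 or D152V rescue replicate 3, where the limma adjusted p reached 0.0773 at most. KIT is also a mast cell gene. The mast cell markers summed to 3.62 to 5.83 FPKM in the D152V rescue, 0.864 to 1.22 in the WT rescue, 1.03 to 2.54 in the knockdown and 2.34 to 7.80 in the control, with 2 of 8 reaching 1 FPKM in any library. CMA1, mast cell chymase, was listed at 0 in all 12 libraries.

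EPOR, the erythropoietin receptor (chr19:11377207-11384314), was the steadiest of the receptors. It measured 6.65, 6.47 and 6.17 FPKM in the D152V rescue, 5.09, 6.01 and 4.15 FPKM in the WT rescue, 6.10, 5.32 and 4.83 FPKM in the knockdown and 5.77, 5.47 and 6.64 FPKM in the control. The D152V rescue libraries were all above those of the WT rescue and the knockdown, and overlapped the control. No comparison of EPOR passed the test. The difference between the rescues was 0.30 (95% interval -0.01 to 0.61, limma adjusted p = 0.222), and that between knockdown and control was -0.12 (95% interval -0.43 to 0.19, limma adjusted p = 0.577). CSF2RB (chr22:36913628-36940439) did not reach 1 FPKM in any library and was not tested. It lay between 0 and 0.107 FPKM, and was listed at 0 in D152V rescue replicate 2 and in MYB_KnockDown replicate 1.

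JAK2, the kinase bound to EPOR (chr9:4984390-5129948), measured 9.42, 9.84 and 10.9 FPKM in the D152V rescue and 10.2, 8.62 and 10.7 FPKM in the WT rescue. It measured 6.03, 7.31 and 9.28 FPKM in the knockdown and 12.3, 12.2 and 12.2 FPKM in the control. The 3 control libraries were above the 9 others, and the D152V rescue lay wholly above the knockdown. JAK2 fell in the knockdown against the control by 0.65 (SE 0.15, limma adjusted p = 0.0227), to 61.6% of the control mean. This was the only JAK2 difference to pass. JAK2 was 0.39 higher in the D152V rescue than in the knockdown (95% interval 0.06 to 0.71, limma adjusted p = 0.0735) and 0.36 higher in the WT rescue than in the knockdown (95% interval 0.04 to 0.68, limma adjusted p = 0.0748). Between the rescues it differed by 0.03 (95% interval -0.29 to 0.35, limma adjusted p = 0.939). The JAK2 fall in the knockdown was lost without any 1 of the 3 control libraries and in a fit of the 6 libraries compared. Its canonical transcript, of 7023 bases, is the longest of the 10. With each library's trend with transcript length removed, a setting added after seeing the data, the fall was 0.38 and did not pass. With the replicate number as a block besides, it passed. Over the 21 other settings the limma adjusted p for this fall reached 0.171 at most. RefSeq places INSL6 and several pseudogenes within the JAK2 interval.

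The STAT5 pair differed in level and in pattern. STAT5A (chr17:42287439-42311943) measured 77.9, 81.5 and 64.7 FPKM in the D152V rescue and 138, 145 and 109 FPKM in the WT rescue. It measured 82.8, 62.8 and 56.7 FPKM in the knockdown and 159.6, 139 and 125 FPKM in the control. The D152V rescue overlapped the knockdown, the WT rescue overlapped the control, and no library of the lower pair reached any library of the upper pair. STAT5A fell in the knockdown against the control by 1.07 (SE 0.17, limma adjusted p = 0.00703) and was 0.95 higher in the WT rescue than in the knockdown (SE 0.17, limma adjusted p = 0.00197). It was lower in the D152V rescue than in the WT rescue, at -0.80 (SE 0.17, limma adjusted p = 0.0102), and lower than in the control, at -0.91 (SE 0.17, limma adjusted p = 0.00623). The D152V rescue differed from the knockdown by 0.16 (95% interval -0.22 to 0.53, limma adjusted p = 0.508).

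The fall of STAT5A in the knockdown held in 20 of 21 other settings, the exception being a fit of the 6 knockdown and control libraries alone (limma adjusted p = 0.127), and its rise in the WT rescue held in all 21. The difference between the rescues held in 19 and was lost without WT rescue replicate 2 or without D152V rescue replicate 3 (highest limma adjusted p = 0.0514).

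STAT5B (chr17:42199177-42288370) was lower in level and followed another order. It measured 16.3, 15.8 and 15.7 FPKM in the D152V rescue and 25.6, 23.3 and 25.1 FPKM in the WT rescue. It measured 13.1, 25.7 and 27.3 FPKM in the knockdown and 33.9, 28.5 and 32.6 FPKM in the control. The control libraries were above the 9 others, the D152V rescue lay below the WT rescue, and MYB_KnockDown replicate 1 was the lowest library while the 2 other knockdown libraries lay above all WT rescue libraries. STAT5B was lower in the D152V rescue than in the control, at -0.95 (SE 0.22, limma adjusted p = 0.0173), which put it at 50.2% of the control mean. That call was lost without control replicate 1 or 3 or without any 1 of the D152V rescue libraries. No other STAT5B comparison passed: the knockdown differed from the control by -0.57 (95% interval -1.04 to -0.09, limma adjusted p = 0.102) and the D152V rescue from the WT rescue by -0.60 (95% interval -1.07 to -0.13, limma adjusted p = 0.103). Without MYB_KnockDown replicate 1, which enters the shared estimate of spread, the difference between the rescues passed (limma adjusted p = 0.000220). Without that library STAT5B in the D152V rescue was also lower than in the knockdown, at -0.70 (limma adjusted p = 0.000266), against -0.38 with it (limma adjusted p = 0.204).

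The coding sequences of STAT5A and STAT5B are near-identical over long stretches, and their RefSeq models overlap at their ends, so the division of reads between them is uncertain. The 2 added together came to 94.2, 97.3 and 80.4 FPKM in the D152V rescue, 164, 168 and 134 FPKM in the WT rescue, 96.0, 88.5 and 84.0 FPKM in the knockdown and 193, 168 and 158 FPKM in the control. The sum therefore kept the split seen for STAT5A. The ratio of STAT5A to STAT5B was 4.79, 5.15 and 4.13 in the D152V rescue, 5.41, 6.23 and 4.35 in the WT rescue, 6.32, 2.45 and 2.07 in the knockdown and 4.70, 4.89 and 3.83 in the control. In knockdown replicates 2 and 3 the ratio was below that of the 10 other libraries, and in knockdown replicate 1 it was above them all.

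Of the feedback inhibitors, CISH, a SOCS-family protein that binds activated cytokine receptors (chr3:50606489-50611774), measured 56.1, 58.9 and 46.7 FPKM in the D152V rescue and 35.7, 39.9 and 39.5 FPKM in the WT rescue. It measured 68.6, 40.7 and 40.2 FPKM in the knockdown and 36.3, 36.2 and 37.1 FPKM in the control. The D152V rescue and the knockdown lay wholly above the WT rescue and the control, the reverse of STAT5A, although 2 knockdown libraries did so by little. No CISH difference passed: it was 0.47 for the D152V rescue minus the WT rescue (95% interval 0.07 to 0.88, limma adjusted p = 0.127), 0.54 for the D152V rescue minus the control (95% interval 0.14 to 0.94, limma adjusted p = 0.0961) and 0.39 for the knockdown minus the control (95% interval -0.01 to 0.79, limma adjusted p = 0.164). Without MYB_KnockDown replicate 1, whose CISH value is the highest, the first passed with a limma adjusted p of 0.00182 and the second with 0.000936. CISH overlaps MAPKAPK3 in RefSeq, and its own transcript, of 2019 bases, is the shortest of the 10.

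SOCS2, an inhibitor of growth hormone and other cytokine receptors (chr12:93569969-93626236), varied least of the 9. It measured 99.2, 109.9 and 104 FPKM in the D152V rescue, 99.5, 102 and 101 FPKM in the WT rescue, 114, 115 and 106 FPKM in the knockdown and 81.6, 102 and 92.5 FPKM in the control. The knockdown libraries were above those of the WT rescue and the control, and the other groups overlapped. The largest SOCS2 difference, 0.28 for the knockdown minus the control (95% interval 0.05 to 0.52), did not pass (limma adjusted p = 0.102). SOCS2 overlaps its antisense gene SOCS2-AS1. The kit is stranded per the labels' protocols, but whether the values use strand is not stated in the sources used here.

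PIM1, a serine/threonine kinase that supports survival (chr6:37170152-37175428), measured 147, 149 and 130.2 FPKM in the D152V rescue and 94.7, 115 and 119 FPKM in the WT rescue. It measured 122, 179 and 174 FPKM in the knockdown and 119.6, 123 and 127 FPKM in the control. The WT rescue libraries were below all 9 others, and the D152V rescue libraries were above the control. PIM1 was lower in the WT rescue than in the knockdown, at -0.51 (SE 0.15, limma adjusted p = 0.0236). This was the only PIM1 difference to pass, and it was lost without knockdown replicate 2 or 3 or WT rescue replicate 1, with quantile normalization and in a fit of the 6 libraries compared. The D152V rescue minus the WT rescue was 0.38 (95% interval 0.04 to 0.72, limma adjusted p = 0.150) and the knockdown minus the control was 0.34 (95% interval 0.00 to 0.68, limma adjusted p = 0.156). Both passed without MYB_KnockDown replicate 1, with limma adjusted p of 0.00760 and 0.00501.

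PIM2, the related kinase on the X chromosome (chrX:48913182-48919024), measured 157, 158 and 112 FPKM in the D152V rescue, 126, 188 and 108 FPKM in the WT rescue, 74.0, 124 and 119 FPKM in the knockdown and 109, 121 and 108 FPKM in the control. All pairs of groups overlapped, and no comparison passed. Its largest difference was 0.45 for the D152V rescue minus the knockdown (95% interval -0.08 to 0.97, limma adjusted p = 0.181).

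In order of mean level, the control had STAT5A at 141 ± 17.4 FPKM, PIM1 at 123 ± 3.83, PIM2 at 113 ± 7.22 and SOCS2 at 92.0 ± 10.1 (SD, n = 3). CISH followed at 36.5 ± 0.459, STAT5B at 31.7 ± 2.82, JAK2 at 12.2 ± 0.0437, KIT at 7.15 ± 2.24, EPOR at 5.96 ± 0.609 and CSF2RB at 0.0518 ± 0.0322. In the control, neighbours with overlapping ranges were STAT5A and PIM1, PIM1 and PIM2, and KIT and EPOR. In the D152V rescue STAT5A, at 74.7 ± 8.82 FPKM, came below PIM2, PIM1 and SOCS2, and did not overlap them. KIT, at 3.54 ± 0.509 FPKM, there lay below EPOR, at 6.43 ± 0.243 FPKM, in all 3 libraries. In the WT rescue STAT5A was second, at 131 ± 19.2 FPKM, and KIT, at 8.81 ± 1.59, lay above EPOR, at 5.08 ± 0.930. In the knockdown STAT5A again came below those 3, at 67.5 ± 13.7 FPKM, though it overlapped PIM2, and KIT lay below EPOR.

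**Figure D2:**
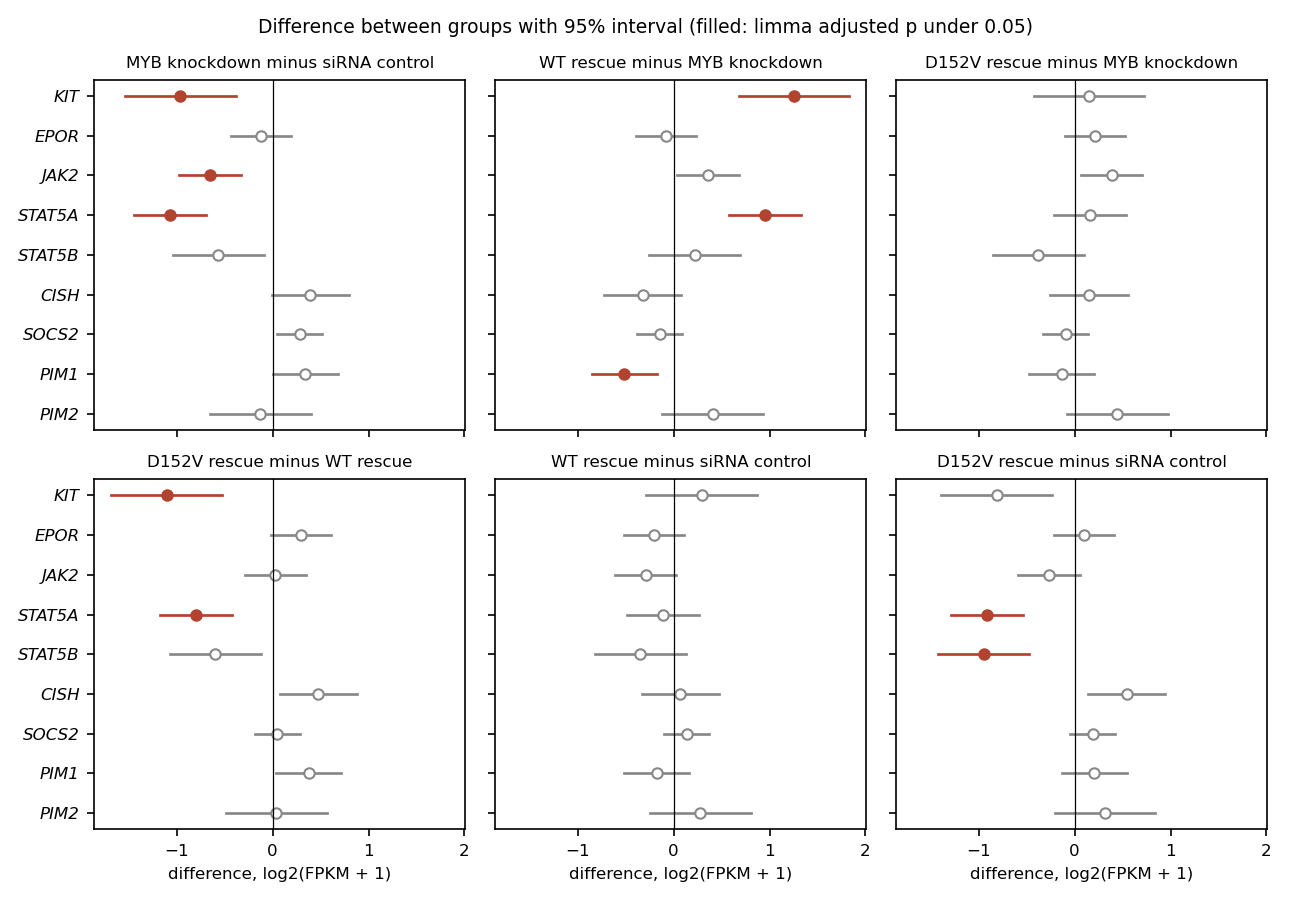
Difference in log2(FPKM + 1) for 9 transcripts in the 6 comparisons, with 95% intervals from limma; filled points passed at an adjusted p under 0.05. KIT and STAT5A are filled in the knockdown minus control, WT rescue minus knockdown and D152V minus WT rescue panels, with signs of minus, plus and minus.

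Counted together, 3 of the 9 tested genes fell in the knockdown against the control (KIT, JAK2 and STAT5A) and none rose, where 11.3% of the 13393 genes tested were called and 7.38% were called lower. The median of the 9 was -0.13, against -0.03 over all tested genes. Of all the genes tested, 1516 were called, and this number ran from 173 without control replicate 1 to 2697 without MYB_KnockDown replicate 1. In the WT rescue against the knockdown, KIT and STAT5A rose and PIM1 fell, where 37.6% of all genes were called, 20.6% higher and 16.9% lower. At 3 of 9, this count is near the background. In the D152V rescue against the knockdown, 0 of the 9 passed by limma, where 25.1% of all genes did, and 1, JAK2, had an unadjusted p under 0.05. Without MYB_KnockDown replicate 1, STAT5B, CISH and PIM1 passed there. The MYB value in the D152V rescue was 302% of that in the knockdown, with transcript of the construct and of the cell's own gene not separated.

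Set against the control, the WT rescue had 0 of 9 called by limma and 0 with an unadjusted p under 0.05, where 9.62% of all genes were called. Intervals there included 0 for all 9, from -0.29 to 0.87 for KIT and from -0.49 to 0.26 for STAT5A. The D152V rescue against the control had 2 of 9 called, STAT5A and STAT5B, both lower, where 9.55% of all genes were called and 4.94% called lower. KIT stood at 49.5% of the control mean in the D152V rescue without passing (log2 difference -0.81, limma adjusted p = 0.0828). The comparisons with the control share the control libraries, and those with the knockdown share the knockdown libraries, so the results within each set are not independent.

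The rescues were compared directly, under the same siRNA. Each construct was in its own stable line, so an effect of D152V and a difference between the lines cannot be told apart. The same holds for every comparison of a rescue with another group. KIT and STAT5A were lower in the D152V rescue, at 40.2% and 57.1% of the WT rescue mean, and the other 7 tested genes did not pass. Thus 2 of 9 were called, where 12.1% of all genes were called and 6.19% called lower. The unadjusted p was under 0.05 for 5 of 9, the others being STAT5B, CISH and PIM1. The median of the 9 was 0.04, against -0.03 over all genes. The MYB transcript in the D152V rescue stood at 73.4% of the WT rescue (limma adjusted p = 0.0494, and 0.0640 with the replicate block). The summed erythroid markers were 2754 to 4560 FPKM in the D152V rescue against 1444 to 2455 FPKM in the WT rescue. The largest term was HBZ, a globin gene, at 2011 ± 555 against 697 ± 439 FPKM (SD, n = 3 each). Of the 15 differences, 12 were above 0 and 3 below (SLC4A1, TFRC and TAL1), with 2 called higher and 1 lower. SLC4A1 averaged 0.356 ± 0.115 FPKM in the D152V rescue and 2.04 ± 0.921 FPKM in the WT rescue. TFRC was not called. The part of the MYB transcript or of the markers in the differences was not tested.

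**Figure D3:**
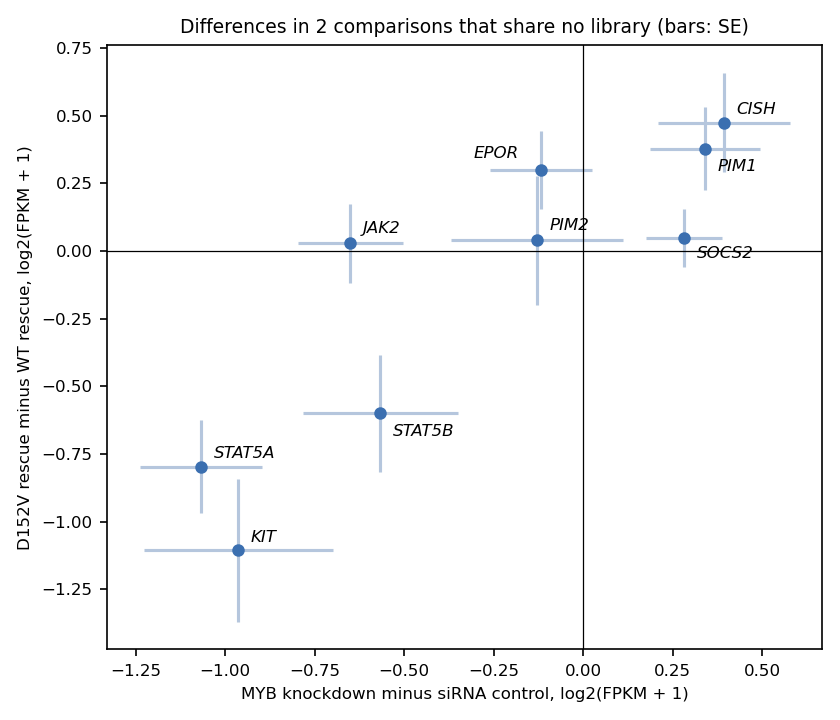
Each point is 1 of 9 transcripts, with the knockdown minus control difference on the x axis and the D152V minus WT rescue difference on the y axis, both in log2(FPKM + 1), and bars of SE. KIT and STAT5A lie at the lower left, CISH and PIM1 at the upper right, and JAK2, at -0.65 and 0.03, is low on the x axis only.

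The knockdown minus control and the D152V minus WT rescue comparisons share no library, though they share the estimate of spread. The signs of the 2 differences matched for 6 of the 9 genes (66.7%), against 59.5% of all tested genes. KIT had -0.96 and -1.11 in these comparisons, STAT5A -1.07 and -0.80 and STAT5B -0.57 and -0.60. On the other side, CISH had 0.39 and 0.47, PIM1 0.34 and 0.38 and SOCS2 0.28 and 0.05. JAK2, EPOR and PIM2 had unlike signs. Without MYB_KnockDown replicate 1 the knockdown minus control difference was -0.25 for STAT5B and 0.14 for CISH. It was then -0.68 for KIT, -1.22 for STAT5A and 0.52 for PIM1, and PIM2 turned to 0.11. The near-equal sizes for STAT5B and CISH thus rest on that library.

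Other genes of the same route were taken from 5 lists that exclude the 10. The shares of all genes called are the background for the counts in each list. They were 11.3% in the knockdown against the control and 12.1% between the rescues. Against the control they were 9.62% in the WT rescue and 9.55% in the D152V rescue. Of 34 ligands and receptors, 10 were tested. The ligands of KIT and EPOR were low, with KITLG, stem cell factor, at 0.811 FPKM at most and EPO at 0.0578 FPKM. FLT3LG, the ligand of the receptor FLT3, was at 4.61 ± 0.707 FPKM in the D152V rescue, 3.56 ± 1.16 in the WT rescue, 4.01 ± 0.464 in the knockdown and 2.25 ± 0.588 in the control (SD, n = 3 each). In the knockdown against the control 0 rose and 1 fell, TFR2, a transferrin receptor that also binds EPOR (-0.91, limma adjusted p = 0.0179). The list's median was -0.14, against -0.03 over all genes, and the TFR2 call was lost without any 1 of the control libraries. In the D152V rescue against the WT rescue 1 rose and 2 fell, LIFR and IL4R. The gene that rose was IL2RG, the gamma chain shared by the receptors for IL-2 and other interleukins, at 39.6 ± 4.30 FPKM in the D152V rescue and 12.1 ± 2.61 FPKM in the WT rescue (SD, n = 3 each; log2 difference 1.65, limma adjusted p = 0.000951, passing in all 21 other settings). IL2RG was also higher in the D152V rescue than in the knockdown, by 1.44, and than in the control, by 1.72. Lymphoid markers summed to 80.7 to 114 FPKM in the D152V rescue, 38.5 to 64.7 in the WT rescue, 22.8 to 105 in the knockdown and 20.8 to 27.3 in the control. The largest term was CD3D, at 90.8 ± 16.8, 46.4 ± 12.8, 37.1 ± 31.6 and 19.6 ± 3.37 FPKM in the same order. NKG7 went the other way between the rescues, at 1.84 ± 0.915 FPKM in the D152V rescue and 3.62 ± 0.265 in the WT rescue. Of the 3 lymphoid markers tested, 2 were above 0 there and 1 below. MS4A1 was listed at 0 in all libraries. The part of these markers was not tested. Against the knockdown 4 of the 10 rose in the D152V rescue (IL2RG, IL6ST, TFR2 and TSLP) and 6 rose in the WT rescue, IL6ST (0.81) and TFR2 (0.76, or 0.49 without MYB_KnockDown replicate 1) included, with 0 falling in either, where 25.1% and 37.6% of all genes were called. Against the control, IL2RG and FLT3LG rose in the D152V rescue and LIFR and OSMR in the WT rescue.

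**Figure D4:**
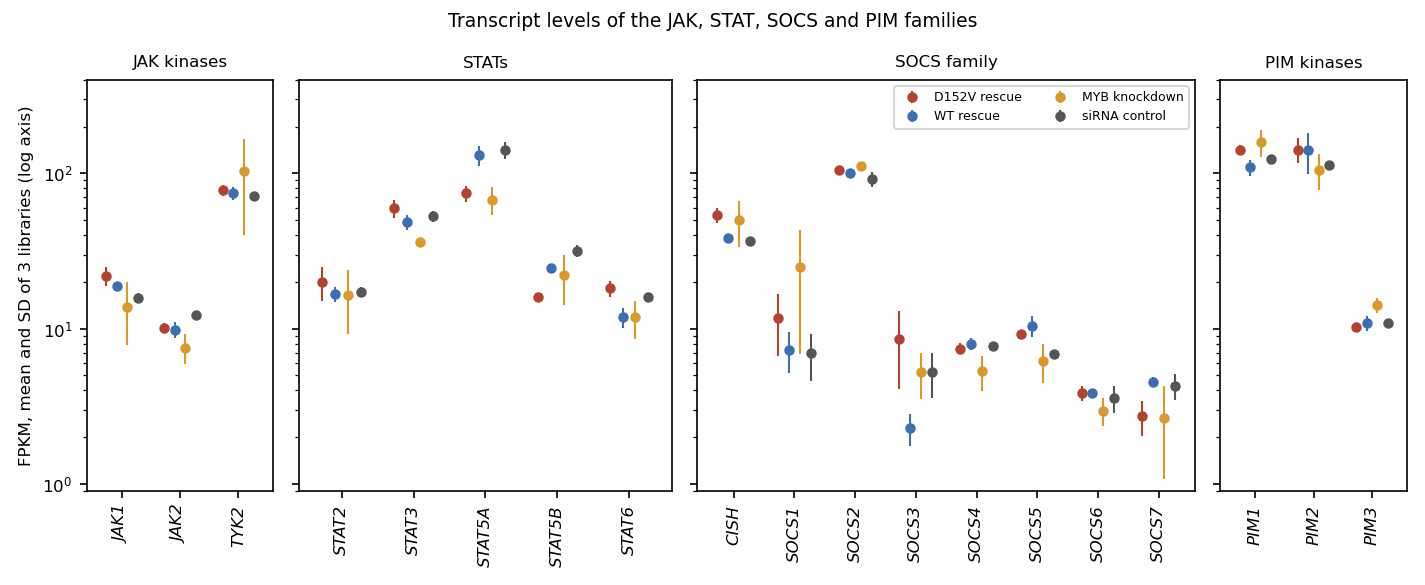
FPKM on a log axis, mean and SD of 3 libraries per group, for genes of the JAK, STAT, SOCS and PIM families. STAT5A is the most abundant STAT in the WT rescue and control, and STAT3, at 59.7 and 36.0 FPKM in the D152V rescue and knockdown, is next to it there.

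Of 18 other kinases and STATs, 15 were tested. JAK1 averaged 21.8 ± 2.92 FPKM in the D152V rescue, 18.9 ± 1.07 in the WT rescue, 13.8 ± 5.99 in the knockdown and 15.7 ± 1.10 in the control. TYK2 lay higher, at 77.9 ± 5.89, 74.8 ± 7.01, 103 ± 63.2 and 71.4 ± 1.88 FPKM in the same groups. MYB_KnockDown replicate 1 had 176 FPKM of TYK2, and the other 2 knockdown libraries averaged 66.8 FPKM. JAK3 did not reach 0.1 FPKM. STAT3, the STAT activated by IL-6 family cytokines, was the next most abundant STAT after STAT5A. It averaged 59.7 ± 7.89 FPKM in the D152V rescue, 48.5 ± 5.42 in the WT rescue, 36.0 ± 1.36 in the knockdown and 53.0 ± 4.27 in the control (SD, n = 3 each). STAT3 fell in the knockdown against the control by 0.54 (limma adjusted p = 0.0246) and was the only one of the 15 called there, with a list median of -0.17 against -0.03 over all genes. The call was lost without any 1 of the control libraries and with the length trend removed. It was higher than in the knockdown by 0.71 in the D152V rescue and 0.41 in the WT rescue (limma adjusted p = 0.00372 and 0.0254). The WT rescue value lost the call in 5 of 21 other settings: in the fit of the 6 libraries compared, without WT rescue replicate 1 (0.43, limma adjusted p = 0.0549) or 3 (0.33, limma adjusted p = 0.0944), and with the length trend removed, alone or with the block (0.15, limma adjusted p = 0.376 and 0.379). With STAT6, 2 of the 15 rose and 0 fell in the D152V rescue against the knockdown, and 3 rose and 0 fell in the WT rescue, STAT3 and ABL2 among them, where 25.1% and 37.6% of all genes were called. ABL2 was at 0.32 (limma adjusted p = 0.0466) and at 0.25 without MYB_KnockDown replicate 1 (limma adjusted p = 0.0652), and STAT6 was at 0.61, or 0.38 without that library, with its call lost in 9 of 21 other settings. The D152V rescue against the WT rescue had 0 of 15 called by limma and 3 with an unadjusted p under 0.05. Neither rescue had any of the 15 called against the control by limma, with an unadjusted p under 0.05 for 3 in the D152V rescue and 2 in the WT rescue. ABL1 and BCR, the genes joined in the fusion of this line, averaged 36.9 ± 0.556 and 19.0 ± 1.87 FPKM in the D152V rescue, 39.7 ± 2.49 and 21.8 ± 1.35 FPKM in the WT rescue, 28.4 ± 11.8 and 15.4 ± 6.91 FPKM in the knockdown and 43.1 ± 3.03 and 23.8 ± 2.59 FPKM in the control (SD, n = 3 each). MYB_KnockDown replicate 1 was the lowest of the 12 libraries for both, at 15.2 and 7.40 FPKM, and the other 2 knockdown libraries averaged 34.9 and 19.4 FPKM.

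All 27 adaptors and effectors, which pass the receptor signal to RAS, PI3 kinase and phospholipase C, were tested. In the knockdown against the control 6 fell and 0 rose, where 11.3% of all genes were called and 7.38% called lower, with a list median of -0.34 against -0.03 over all genes. The largest falls were those of SOS1, an exchange factor for RAS (-1.01, limma adjusted p = 0.0222), PLCG1, a phospholipase C (-0.91, limma adjusted p = 0.0383), and GRB10, an adaptor that binds receptor tyrosine kinases (-0.72, limma adjusted p = 0.00804). GAB1 and SOS2 were among the others, and their calls were lost in 13 of 20 and 14 of 21 other settings. The GRB10 call was lost in 1 setting, the fit of the 6 libraries compared. That of SOS1 was lost in 5, among them without any 1 of the control libraries. That of PLCG1 was lost in 12 of 21, among them without any 1 of the control or D152V rescue libraries and with the length trend removed. Against the knockdown 8 rose and 1 fell in the WT rescue, where 37.6% of all genes were called, among them SOS1 (1.90), AKT2 (1.25) and GRB10 (0.90) upwards, with MAP2K1 the one that fell (-0.60). AKT2 had 14.3 FPKM in MYB_KnockDown replicate 1 and an average of 48.5 FPKM in the other 2 knockdown libraries. Without the first of these AKT2 was at 0.68 (limma adjusted p = 0.00392), and without WT rescue replicate 2 its call was lost (1.04, limma adjusted p = 0.0886). The MAP2K1 call was lost in 6 of 21 other settings. The D152V rescue against the knockdown had 8 that rose, among them SOS1 (1.08) and SOS2 (0.52), and 2 that fell, PIK3CD (-0.58) and VAV1, where 25.1% of all genes were called. SOS2 was there at 0.33 without MYB_KnockDown replicate 1 and lost the call in 9 of 21 other settings, and that of PIK3R1, one of those that rose, in 18 of 20, among them without MYB_KnockDown replicate 1 (0.34, limma adjusted p = 0.0901). Between the rescues, where 12.1% of all genes were called, PLCG2 rose and 2 fell in the D152V rescue. These 2 were SOS1 (-0.82, limma adjusted p = 0.0359, lost on leaving out any 1 of 8 libraries) and GRB10 (-0.65, limma adjusted p = 0.00444, passing in all 21 other settings). Against the control, PLCG1 (-1.24), CRK (-0.47) and GRB10 (-0.47) were lower in the D152V rescue and GAB1 and PLCG2 were higher, while in the WT rescue 1 gene, SOS1, was higher.

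Of 30 negative regulators, 24 were tested. In the knockdown against the control 3 fell, the STAT inhibitors PIAS4 (-1.01), PIAS1 (-0.77) and PIAS2 (-0.64), with limma adjusted p of 0.0349, 0.0180 and 0.0346, and 1 rose, DUSP5, a MAP kinase phosphatase, where 11.3% of all genes were called. The list median was -0.25, against -0.03 over all genes. PIAS4 and PIAS2 lost the call without any 1 of the control libraries and PIAS1 without control replicate 1 or 2. Against the knockdown 8 rose and 3 fell in the WT rescue, where 37.6% of all genes were called, among them PIAS2 (0.89), PIAS4 (0.78) and SOCS5 (0.69) upwards and SOCS1 (-1.44), PTPN6 and DUSP5 downwards. SOCS1 had 45.4, 19.6 and 10.2 FPKM in knockdown replicates 1 to 3, and its call was lost in 8 of 21 other settings, among them without MYB_KnockDown replicate 1 (-0.91, limma adjusted p = 0.0885), knockdown replicate 2 or any 1 of the WT rescue libraries. The PIAS4 call was lost in 11 of 21, among them without MYB_KnockDown replicate 1 (0.46, limma adjusted p = 0.0725) and with the replicate block. USP18, another of those that rose, also lost the call without that library (0.43, limma adjusted p = 0.0633). The D152V rescue against the knockdown had 5 that rose, among them PIAS1 (0.91), PIAS4 (0.83) and PIAS3 (0.77), and 3 that fell, PTPN6, CBLB and DUSP5, where 25.1% of all genes were called. Without MYB_KnockDown replicate 1 the calls of PIAS4 (0.51, limma adjusted p = 0.0620), SOCS5 (0.33, limma adjusted p = 0.0640) and DUSP5 (-0.45, limma adjusted p = 0.0560) were lost, which left 3 that rose. PIAS4 lost its call in 12 of 21 other settings and PIAS3, at 0.46 without that library, in 4. Between the rescues 1 rose and 2 fell, CBLB and SPRY1, where 12.1% of all genes were called. SOCS3, the inhibitor of IL-6 family receptors, rose to 8.51 ± 4.47 FPKM in the D152V rescue, against 2.28 ± 0.543 FPKM in the WT rescue (SD, n = 3 each; log2 difference 1.41, limma adjusted p = 0.0310, lost without any 1 of the WT rescue libraries or without D152V rescue replicate 1 or 2). Against the control, USP18 rose and CBLB fell in the D152V rescue, and USP18 and SPRY1 rose and PTPN6 fell in the WT rescue. The list medians between the rescues were 0.01 for ligands and receptors, -0.09 for kinases and STATs, -0.04 for adaptors and effectors and -0.04 for negative regulators, against -0.03 over all genes.

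Of 27 genes described in the literature as STAT5 targets, 20 were tested, and their directions were mixed. In the knockdown against the control 1 rose, GDF15 (0.86, limma adjusted p = 0.0275), a secreted stress cytokine, and 1 fell, MYC (-1.10, limma adjusted p = 0.00738), with a median of -0.10. Over all genes 11.3% were called there. The GDF15 call was lost without any 1 of the control libraries. In the D152V rescue against the WT rescue 3 rose and 2 fell, where 12.1% of all genes were called. The median was 0.15, against -0.03 over all genes. BCL2L1, which encodes the survival protein BCL-xL, averaged 112 ± 6.99 FPKM in the D152V rescue, 60.8 ± 4.67 in the WT rescue, 60.3 ± 8.07 in the knockdown and 67.9 ± 2.41 in the control (SD, n = 3 each). It was higher in the D152V rescue than in the WT rescue (0.87, limma adjusted p = 0.000591), the knockdown (0.89, limma adjusted p = 0.000805) and the control (0.71, limma adjusted p = 0.00325), each in all 21 other settings. GDF15 averaged 59.2 ± 3.37 FPKM in the D152V rescue and 11.96 ± 3.67 FPKM in the WT rescue (2.26, limma adjusted p = 3.44e-05), with 32.1 ± 5.82 FPKM in the knockdown and 17.2 ± 2.14 FPKM in the control. EGR1, an immediate early gene, was 2.03 higher in the D152V rescue (limma adjusted p = 0.0491) and lost the call in 12 of 21 settings. RUNX1 (-0.88, limma adjusted p = 0.00832) and MYC (-0.66, limma adjusted p = 0.0351) were lower in the D152V rescue than in the WT rescue, and the MYC call was lost in 10 of 21 settings.

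Against the knockdown, 4 of these 20 rose and 5 fell in the WT rescue, where 37.6% of all genes were called, with TFRC, MYC (0.96), RUNX1 (0.85) and KLF3 upwards and IGF1 (-1.87), ID1 (-1.46), GDF15 (-1.38) and PIM3 among those downwards. Against the same knockdown libraries 6 rose and 4 fell in the D152V rescue, where 25.1% of all genes were called, with EGR1 (2.42), KLF3 (0.92), BCL2L1, GDF15, CCND1 and CDKN1A upwards and IGF1 (-1.53), ID1 and PIM3 among those downwards. Of these, ID1 and CDKN1A lost the call in 13 of 21 and 13 of 20 other settings, among them without MYB_KnockDown replicate 1 (-0.57, limma adjusted p = 0.0784, for ID1 and 0.61, limma adjusted p = 0.0615, for CDKN1A). The PIM3 call was lost in 12 of 21 settings for the WT rescue and in 6 for the D152V rescue. PIM3, the remaining PIM kinase, averaged 10.3 ± 0.508 FPKM in the D152V rescue, 10.8 ± 1.21 in the WT rescue, 14.1 ± 1.56 in the knockdown and 10.8 ± 0.642 in the control. Against the control, GDF15 (1.73), BCL2L1 and CDKN1A were the higher genes and IGF1 (-1.14) and MYC (-0.80) were among the lower ones in the D152V rescue. In the WT rescue CDKN1A was higher and 2 were lower than in the control, among them IGF1 (-1.48).

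Genes whose 12 values ran closest to those of the called genes were sought among 8854 named genes with a mean of at least 5 FPKM, by the mean absolute difference of centred log2(FPKM + 1) values. For KIT they were SKP2, ANKRD27 and ATP7B, with differences of 0.17, 0.19 and 0.20, where KIT itself varied by 0.52 around its mean. SKP2 averaged 27.4 FPKM in the D152V rescue, 50.7 in the WT rescue, 28.7 in the knockdown and 50.6 in the control. For STAT5A they were LEF1, SOHLH2 and TBX1, each at 0.17. LEF1 averaged 30.7 FPKM in the D152V rescue, 56.4 in the WT rescue, 27.1 in the knockdown and 47.1 in the control. For STAT5B they were ACLY, EZH1 and EFTUD2 (0.09, 0.11 and 0.12), for JAK2 CCDC117, DAZAP2 and MPZL1 (0.08, 0.09 and 0.09) and for PIM1 NUBP1, CENPQ and ELOVL1 (0.08, 0.10 and 0.10). None of the 10 genes was among another's 3 closest.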

How the data were processed

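RNA sequencing values of 12 K-562 libraries were used. The authors deposited 1 table of FPKM values with 60658 rows, made from 125-bp paired reads; per the submitters' processing notes the build was GRCh38 and the tools were Cufflinks 2.2.1, TopHat2 2.0.13, Trimmomatic 0.33 and bcl2fastq 2.17.1.14. The sources used here do not state the annotation, the use of strand or the number of reads. Values under 0.1 FPKM were checked for steps of whole reads: a median of 4.91% of ratios lay within 2% of a pair's median, so no count model was run. FPKM values depend on transcript length and on a library's most abundant transcripts.

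Genes with at least 1 FPKM in at least 3 libraries were kept, 13393 in all and 9 of the 10 followed here. All 12 libraries entered 1 limma 3.58.1 fit (R 4.3.3) on log2(FPKM + 1) with a trended prior variance and 8 degrees of freedom left for the residuals. The 6 comparisons between groups were tested at a Benjamini-Hochberg adjusted p under 0.05 over all 13393 genes, and 95% intervals are limma's, unadjusted. Since the estimate of spread is shared, a library of any group can move every comparison. Groups and replicate numbers come from the sample titles; the replicates are individual experiments per the series' design text. The fit was tested on simulated data. Tables and figures used Python 3.11.15, pandas 2.3.3 and matplotlib 3.10.9.

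Ensembl identifiers were matched to symbols by table; lengths come from GENCODE canonical transcripts, and coordinates and promoters from RefSeq on GRCh38.p14. The 10 genes, the 5 pathway lists, the marker lists and the tests were chosen with earlier results of these data known. Outside the 10, named genes were MYB, relatives of the 10 by level, called list genes and the 3 most alike genes of each called one. The called list genes had a mean of at least 5 FPKM, with up to 3 higher and 3 lower per list and comparison. CMA1, MS4A1 and the other marker genes named, KITLG, EPO, ABL1, BCR and the called list genes given without values were named after their values were seen. Some genes that the rule takes are left out of the text. Marker lists for mast cells, lymphoid cells, monocytes and granulocytes (4.23 to 29.8 FPKM summed, ELANE at 0 in all libraries) and fibroblasts and epithelia (148 to 737 FPKM summed) served as checks.

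To check pairing, each library's deviations from its group mean were correlated between libraries over the tested genes. Between the rescues the same-numbered libraries had r of 0.169, 0.153 and 0.233, and in no other comparison did all 3 exceed 0.1. Their numbers may therefore pair them, but WT rescue replicate 1 and control replicate 2, of unequal number, had 0.218. The main fit has no block, and the replicate block was applied to all 4 groups. The replicate block changed no call of the 9 genes, and ended that of MYB between the rescues (limma adjusted p = 0.0640). Other settings tried were no filter, a mean of at least 5 FPKM (which leaves 20 settings for genes below it), a pseudocount of 0.1, quantile normalization, median-ratio scaling, the replicate block, only the 6 libraries compared and leaving out each library; removal of the length trend, alone and with the block, was added after seeing the data.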

Additional observations from a re-analysis of the deposited data

Results flagged for a closer look

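STAT5A changed less from the knockdown in the D152V rescue (0.16) than in the WT rescue (0.95), a difference between the changes of -0.80 that passed limma's test (adjusted p = 0.0102). KIT likewise changed by 0.15 in the D152V rescue and by 1.26 in the WT rescue, a difference of -1.11 (limma adjusted p = 0.0178). Each is the same contrast as the D152V rescue minus the WT rescue, and the MYB transcript differed between the rescues by -0.44 (limma adjusted p = 0.0494, and 0.0640 with the replicate block).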

How the results depend on the processing

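Over 54 results of the 9 tested genes and 21 other settings, 1051 of 1134 values kept their direction and their side of the threshold, 34 lost the call, 31 gained it and 18 turned in direction, all for differences that did not pass. With quantile normalization SOCS2 was at 0.017 for the WT rescue and 0.15 for the D152V rescue minus the knockdown, and PIM1 at 0.10 for the D152V rescue minus the knockdown. With the length trend removed, with or without the replicate block, STAT5B was at -0.048 for the WT rescue and KIT at -0.061 for the D152V rescue minus the knockdown. The other turns came from leaving out single libraries, over which values ranged as follows. PIM2 ran from -0.26 to 0.11 for the knockdown minus the control and was above 0 without MYB_KnockDown replicate 1. Without the same library STAT5B turned for the WT rescue minus the knockdown (-0.10 to 0.40) and KIT for the D152V rescue minus the knockdown (-0.14 to 0.36). EPOR for the WT rescue minus the knockdown (-0.19 to 0.031) and STAT5A for the WT rescue minus the control (-0.20 to 0.011) turned without WT rescue replicate 3. For the D152V minus the WT rescue, PIM2 (-0.13 to 0.27) turned without WT rescue replicate 1 or 3 or D152V rescue replicate 1 or 2, and JAK2 (-0.056 to 0.088) without WT rescue replicate 2 or D152V rescue replicate 3. MYB in the WT rescue minus the control (-0.046 to 0.12) turned without control replicate 3.

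The number of the 9 called moved with the fit. With only the 6 libraries compared it was 0 for the knockdown minus the control, 5 for the D152V minus the WT rescue, 1 for the WT rescue minus the control and 4 for the D152V rescue minus the control. With the length trend removed it was 1 for the knockdown minus the control, 1 for the D152V rescue minus the knockdown, 4 between the rescues and 4 for the D152V rescue minus the control; with the replicate block as well it was 1 for the D152V rescue minus the knockdown, 1 for the WT rescue minus the control and 4 for the D152V rescue minus the control. Leaving out single libraries gave 1 to 4 for the knockdown minus the control, 2 to 3 for the WT rescue minus the knockdown, 0 to 3 for the D152V rescue minus the knockdown, 0 to 5 between the rescues, 0 to 1 for the WT rescue minus the control and 1 to 4 for the D152V rescue minus the control. The causes were not tested.

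Over all genes, the knockdown minus the control had 1516 calls with all libraries, 16 with its 6 libraries alone and 738 with no filter. With only the 6 libraries compared, the WT rescue minus the knockdown had 1689 (5031 in the fit of 12), the D152V rescue minus the knockdown 548 (3355), the D152V minus the WT rescue 3275 (1627), the WT rescue minus the control 3512 (1289) and the D152V rescue minus the control 3575 (1279). With a mean of at least 5 FPKM, the last 3 had 869, 710 and 699. Leaving out single libraries gave 3194 to 6055, 1639 to 4389, 1020 to 4209, 682 to 3973 and 725 to 3706 for these 5 comparisons in the order named; the highest count of the first and of the last 3 came without MYB_KnockDown replicate 1.

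Outside the 2 rescues the correlations for equal numbers, from -0.042 to 0.349, gave no steady sign of pairing. With the replicate block KIT in the D152V minus the WT rescue stayed at -1.11, and all-gene calls there were 1871. Depth limits could not be given, since read numbers are unknown, and a gene near 1 FPKM may rest on few reads.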
